A study of Rattus norvegicus with 6 samples.

Results

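Sodium, potassium and calcium pump subunits were described in the hippocampus of 2 rat lines. They comprise every probe set annotated to exactly 1 gene that is Atp1b1, Atp1b2, Atp2a2, Atp2b1, Atp2b2 or Atp2b3. This rule uses the platform annotation and gene names, not measured values, though its genes were chosen with earlier results of these data known. It gave 20 of 8740 probe sets other than controls, for 6 of 4736 named genes. All 20 were bright enough to pass the filter on low values and were tested.

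The animals were Syracuse High Avoidance (SHA) and Syracuse Low Avoidance (SLA) rats, lines whose names refer to performance in two-way active avoidance. Each line was measured as 3 pools of whole hippocampus from 3 rats, with 1 array per pool. All rats had been tested and were killed 2 weeks later, so no group shows the lines without testing. The labels give neither age nor sex, and nothing in them says which rats or days a pool number stands for. Intensities are the authors' linear values in array units, with nearly the same trimmed mean on each array. A difference is the mean log2 value of the SHA pools less that of the SLA pools, given with its standard error after ± (n = 3 pools per line).

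Neurons spend much of their energy on restoring ion gradients after firing. The sodium-potassium pump exports sodium and imports potassium. Its alpha subunit does the transport, and its beta subunit is needed to fold the pump and carry it to the cell surface. Calcium is removed from the cytosol by plasma membrane calcium pumps (PMCA, Atp2b genes) and by the pump of the endoplasmic reticulum (SERCA, Atp2a genes). In rodent brain the beta subunit Atp1b1 and the pumps Atp2b2 and Atp2b3 are mainly neuronal, while Atp1b2, also known as adhesion molecule on glia, is mainly astrocytic. Atp2a2 and Atp2b1 are made in most cells.

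No member differed between the lines beyond the spread of the pools. With limma, none of the 20 probe sets reached an adjusted p below 0.05, none had an unadjusted p under 0.05, and in none did the 3 SHA pools lie wholly above or below the 3 SLA pools. Over all 6555 probe sets tested these shares were 0%, 1.50% and 5.66%. The lowest unadjusted p of a member was 0.13 in limma, and all had an adjusted p of 1.00. With the pool number as a replicate block, 2 of the 20, both of Atp1b1, had an unadjusted p under 0.05 in limma (lowest 0.022, adjusted p = 0.83), against 5.26% of all probe sets. In SHA, 11 of 20 probe sets were on the higher side (55%) and 9 on the lower side, against 48.1% on the higher side over all probe sets. The members' median difference was 0.08, against -0.01 over all probe sets, and the median size of a difference was 0.23 against 0.24.

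**Figure D1:**
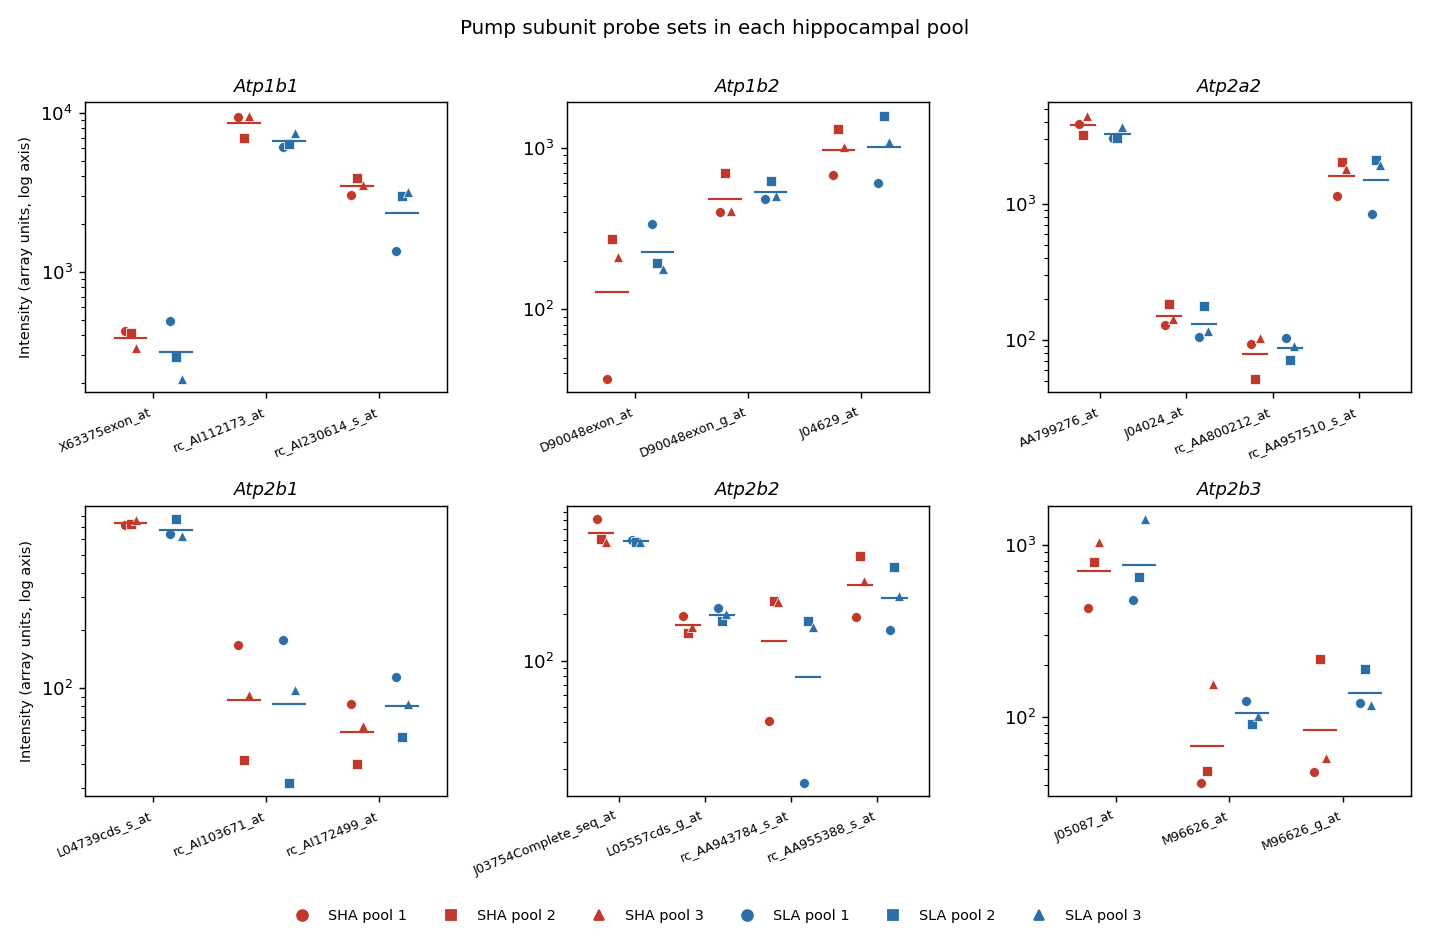
Intensity of each pump subunit probe set in every pool, 1 panel per gene, on a log axis in array units. Red points are SHA pools and blue points SLA pools, the symbol gives the pool number, and short lines are geometric means of 3 pools. The 2 lines overlap for all 20 probe sets.

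Atp1b1, the neuronal beta subunit, was on the higher side in SHA on all 3 of its probe sets, without passing the test. Probe set rc_AI112173_at read 9375.7, 7002.6 and 9626.7 in SHA pools 1, 2 and 3, against 6113.8, 6351.0 and 7484.3 in the SLA pools. SHA pools 1 and 3 lay above every SLA pool, and SHA pool 2 lay below SLA pool 3. The difference was 0.37 ± 0.28, a 1.30-fold higher value in SHA, with a 95% interval from -0.25 to 1.00 (limma, unadjusted p = 0.21).

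The second Atp1b1 probe set, rc_AI230614_s_at, read 3033.6, 3915.0 and 3521.0 in SHA, against 1355.7, 2994.2 and 3172.7 in SLA. SLA pool 1 was the low value here, and the other SLA pools lay within or just under the SHA range. The difference was 0.57 ± 0.34 with a 95% interval from -0.20 to 1.34, and it was 0.17 without SLA pool 1. The third, X63375exon_at, read 423.4, 411.5 and 332.1 in SHA, against 490.4, 292.3 and 211.9 in SLA, so that SLA pool 1 was the highest of the 6. Its difference was 0.31 ± 0.33, 0.64 without SLA pool 1 and 0.03 without SLA pool 3.

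Compared within pool numbers, Atp1b1 differed by 0.62, 0.14 and 0.36 on rc_AI112173_at and by 1.16, 0.39 and 0.15 on rc_AI230614_s_at for the numbers 1, 2 and 3. With the pool number as a replicate block these were the only members at an unadjusted p under 0.05, at 0.035 and 0.022 in limma. Their adjusted p was 0.83 in that fit, the lowest of any member under the settings tried, which ranged up to 1.00. On X63375exon_at the within-number differences were -0.21, 0.49 and 0.65, and the block gave an unadjusted p of 0.2 in limma. Array weights moved the 3 probe sets in different ways. The difference became 0.71 on X63375exon_at (limma, unadjusted p = 0.026, adjusted p = 0.88), 0.21 on rc_AI230614_s_at (unadjusted p = 0.43) and 0.27 on rc_AI112173_at (unadjusted p = 0.29).

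Atp1b2, the astrocytic beta subunit, lay close to equal in both lines on its 2 steadier probe sets. J04629_at read 677.2, 1311.6 and 1008.4 in SHA, against 607.3, 1580.3 and 1080.4 in SLA. In both lines pool 1 was lowest and pool 2 highest. The difference was -0.07 ± 0.38, with a 95% interval from -0.92 to 0.77. D90048exon_g_at read 398.0, 697.0 and 407.3 in SHA, against 479.9, 620.9 and 505.2 in SLA, a difference of -0.14 ± 0.28.

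The remaining Atp1b2 probe set, D90048exon_at, read 36.8, 271.4 and 211.4 in SHA, against 334.2, 194.0 and 177.9 in SLA. Its difference of -0.82 ± 0.68 was set by SHA pool 1, and without that pool it was 0.08. The within-number differences were -3.18, 0.48 and 0.25. This probe set and D90048exon_g_at derive from the same sequence entry, yet SHA pool 1 stood apart on the first alone. Whether the lines differ in Atp1b1 by another amount than in Atp1b2 was not tested.

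Atp2a2 encodes SERCA2, which loads calcium into the endoplasmic reticulum. Its probe set AA799276_at read 3864.2, 3220.0 and 4481.1 in SHA, against 3066.9, 3047.9 and 3716.6 in SLA. Each SHA pool was above the SLA pool of its number, by 0.33, 0.08 and 0.27, but SHA pool 2 was below SLA pool 3. The difference was 0.23 ± 0.25, with a 95% interval from -0.33 to 0.78. J04024_at read 128.7, 183.2 and 143.0 in SHA, against 105.3, 176.6 and 116.7 in SLA, a difference of 0.21 ± 0.36. Again each SHA pool was above its SLA counterpart, and pool 2 was highest in both lines.

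The other Atp2a2 probe sets lay near 0. On rc_AA957510_s_at the pools read 1137.8, 2046.1 and 1799.2 in SHA, against 840.6, 2105.1 and 1948.1 in SLA, with pool 1 lowest in each line. The difference was 0.09 ± 0.38, and it was -0.08 without both pools numbered 1. On rc_AA800212_at they read 92.3, 51.1 and 103.4 in SHA, against 102.6, 70.9 and 90.5 in SLA, with pool 2 lowest in each line and a difference of -0.14 ± 0.46.

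Atp2b1 encodes PMCA1, the plasma membrane calcium pump of most tissues. L04739cds_s_at was the steadiest of the 20 probe sets, at 718.0, 718.9 and 755.5 in SHA, against 639.7, 765.4 and 622.7 in SLA. All 6 pools lay within 1.23-fold of each other. The difference was 0.12 ± 0.22, and its 95% interval, from -0.37 to 0.60, corresponds to a ratio of SHA to SLA between 0.78 and 1.52. The standard error is wider than these 6 values alone would give, because limma shares the spread of probe sets of like brightness.

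The other 2 Atp2b1 probe sets varied far more between pools than between lines. On rc_AI103671_at the readings were 168.1, 42.0 and 92.2 in SHA, against 178.8, 31.7 and 98.0 in SLA, a difference of 0.08 ± 0.72. Pool 1 was highest and pool 2 lowest in both lines, 5.64-fold apart at the extremes. On rc_AI172499_at they were 82.2, 39.7 and 63.0 in SHA, against 114.3, 55.0 and 82.1 in SLA, a difference of -0.44 ± 0.51. Here every SHA pool was below the SLA pool of its number, by nearly the same amount (-0.48, -0.47 and -0.38), while the lines still overlapped. The limma p with the block was 0.28.

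Atp2b2 encodes PMCA2, a fast neuronal calcium pump. J03754Complete_seq_at read 811.1, 607.9 and 582.9 in SHA, against 595.8, 579.2 and 578.4 in SLA. SHA pools 2 and 3 lay close to the SLA pools, and SHA pool 1 was the high value. The difference was 0.18 ± 0.23, and 0.03 without SHA pool 1. L05557cds_g_at went the other way, at 193.2, 151.0 and 164.9 in SHA, against 217.4, 178.7 and 198.1 in SLA, a difference of -0.23 ± 0.30.

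On rc_AA955388_s_at, Atp2b2 read 190.7, 469.9 and 325.8 in SHA, against 157.0, 397.8 and 258.9 in SLA. Within the numbers the differences were 0.28, 0.24 and 0.33, but the pools of a line spanned a wider range than that, and the fitted difference was 0.28 ± 0.43. On rc_AA943784_s_at the readings were 40.9, 240.3 and 237.5 in SHA, against 16.3, 179.3 and 163.7 in SLA. Both pools numbered 1 were far below the rest, the 6 pools spanned 14.7-fold, and the difference was 0.76 ± 0.99. Without SLA pool 1 it was -0.37, and without both pools numbered 1 it was 0.48. All 4 Atp2b2 probe sets thus had the same sign within each pool number, 3 on the higher and L05557cds_g_at on the lower side in SHA. Such agreement of sign held for 9 of the 20 members (45%), against 28% of all probe sets. The 4 probe sets did not give the gene 1 direction.

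Atp2b3 encodes PMCA3, a calcium pump with a narrow distribution in neurons and the choroid plexus. J05087_at read 426.1, 792.6 and 1030.6 in SHA, against 476.1, 650.6 and 1403.1 in SLA. In both lines pool 1 was lowest and pool 3 highest, and the difference was -0.11 ± 0.44. M96626_at read 41.2, 48.2 and 154.1 in SHA, against 123.9, 91.3 and 101.1 in SLA, a difference of -0.63 ± 0.56. M96626_g_at read 48.0, 216.4 and 57.5 in SHA, against 119.4, 189.8 and 116.2 in SLA, a difference of -0.71 ± 0.59.

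The last 2 probe sets come from the same sequence entry and had similar mean differences, but not in the same pools. M96626_at was high in SHA pool 3 and M96626_g_at in SHA pool 2. Leaving out the high SHA pool, a different one for each, gave -1.23 on M96626_at and -1.39 on M96626_g_at. The unadjusted p values were 0.033 and 0.02 in limma, and the adjusted p values 1.00 in both. Removing the value that opposes a difference enlarges it by construction, so these p values carry no weight. Without SHA pool 1 the differences were -0.28 and -0.31 (limma, unadjusted p = 0.65 and 0.62). Without both pools numbered 1 the differences were -0.16 and -0.41.

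**Figure D2:**
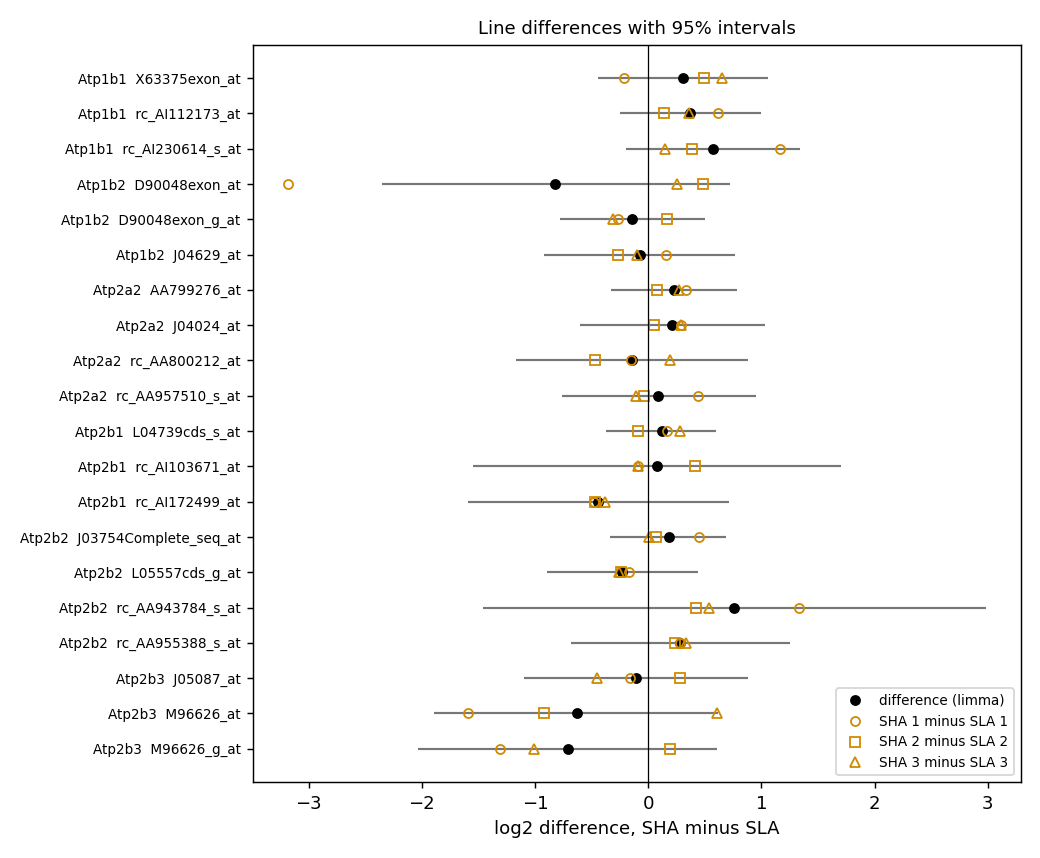
Difference of each probe set on the log2 scale, SHA minus SLA (black points), with its 95% interval from limma as a grey line. Open symbols are differences between pools of the same number. Every interval includes 0, and the widest, of Atp2b2 on rc_AA943784_s_at, runs from -1.46 to 2.98.

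By cell type, the 10 probe sets of the neuronal genes Atp1b1, Atp2b2 and Atp2b3 had 6 on the higher and 4 on the lower side in SHA, with a median of 0.23. Atp1b1 and Atp2b3 lay on opposite sides within that group, with medians of 0.37 and -0.63. The 3 probe sets of glial Atp1b2 were all on the lower side, with a median of -0.14. The 7 of the broadly made Atp2a2 and Atp2b1 had 5 on the higher side and a median of 0.09. The median SD of pools within a line was 0.58 for the neuronal, 0.60 for the glial and 0.43 for the broadly made genes (log2), each larger than the group's median difference. Differences between these groups of genes were not tested.

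In whole hippocampus, fewer cells of a type and less RNA per cell cannot be told apart, so marker genes are given beside these values. Of 10 neuron markers tested, 8 were on the higher and 2 on the lower side in SHA, with a median of 0.20. Their summed intensity lay between 13805.5 and 15242.5 in SHA, against 12665.5 and 14265.8 in SLA. Among them Nrgn, neurogranin of principal neurons, averaged 6460 in SHA and 6063 in SLA. Of 8 astrocyte markers, 6 were on the higher and 2 on the lower side (median 0.15), with sums from 23043.3 to 26134.9 in SHA and from 20412.6 to 24396.1 in SLA. The 6 include Glul at 0.00 and S100b at 0.03. They also include Aqp4 at 0.64, though it averaged 193 in SHA and 257 in SLA. Its lowest SLA pool read 5.1 and was raised to the floor of 8.9. Over all probe sets 48.1% were on the higher side. No marker of either list had an unadjusted p under 0.05 in limma, and no measured marker was at the floor in all pools. The part of cell composition in the members' values was not tested.

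The pools differed by number more than by line. Of the variation of a member probe set over the 6 pools, the pool number held a median of 71.6% and the line 15.3%, against 62.4% and 7.61% over all probe sets. The number has more levels than the line, so it takes the larger share more easily. It did so for 18 of the 20 members (90%), against 85.3% of all probe sets. The exceptions were Atp1b1 on rc_AI112173_at, where the line held 54.1%, and Atp2b1 on L04739cds_s_at, where it held 27.3%. The number held 98.3% on rc_AI103671_at of Atp2b1 and 96.3% on J04629_at of Atp1b2.

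The 2 pools numbered 1 were both lowest or both highest of the 6 for 8 members (40%), 5 times lowest and 3 times highest, against 31.5% of all probe sets. For number 2 this held for 9 members (45%), 3 times lowest and 6 times highest, against 36.1%. For number 3 it held for 1 member, J05087_at of Atp2b3, against 13.9% of all. Added control transcripts also varied by number, with geometric mean intensities of 5458, 1121 and 2279 in SHA pools 1, 2 and 3, against 12282, 640 and 1564 in the SLA pools. The part of array preparation in these values was not tested. Without both pools numbered 1, 11 of 20 members were again on the higher side in SHA and none had an unadjusted p under 0.05 in limma.

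**Figure D3:**
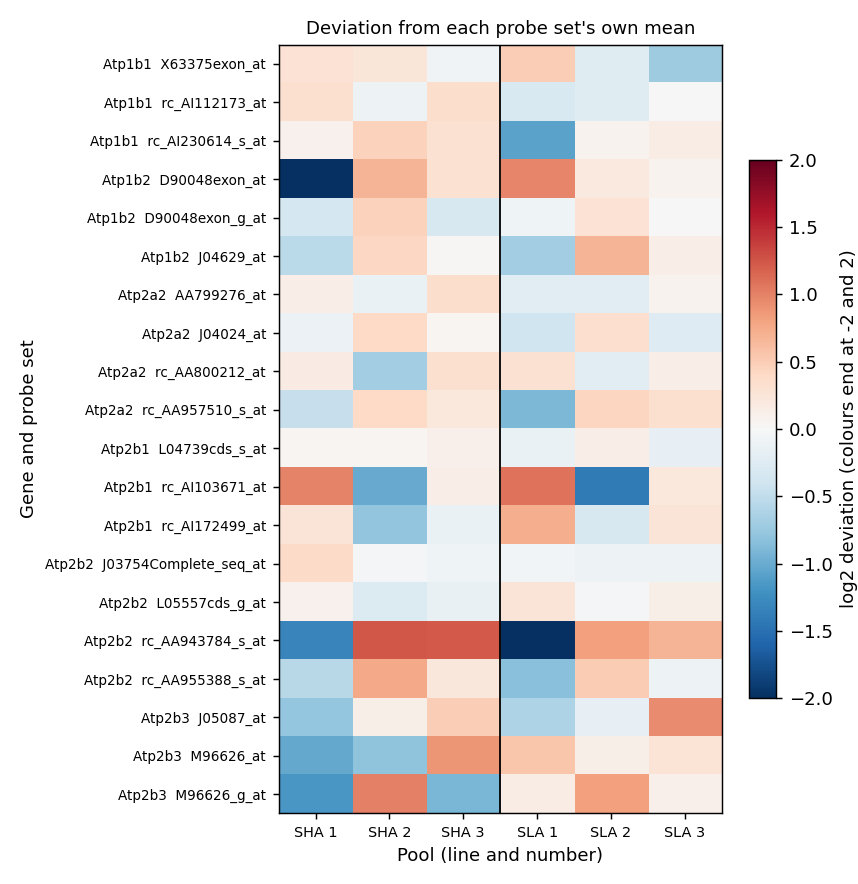
Log2 deviation of each pool (columns) from the mean of the 6 pools, for each pump subunit probe set (rows), with red above and blue below that mean. Pools of the same number in the 2 lines often share their colour, as for Atp2b1 on rc_AI103671_at and Atp2b2 on rc_AA955388_s_at.

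Probe sets with the most similar course over the 6 pools were sought for the brightest probe set of each gene, among 5362 probe sets of other named genes. Likeness was the root-mean-square difference of mean-centred log2 values. For Atp2a2 the closest was Atp6v0c, a subunit of the vacuolar proton pump, at 0.045, and then the tight junction gene Ocln at 0.054. The same Atp6v0c probe set was also closest to Atp1b1, at 0.090, followed by the splicing factor gene Cdc5l at 0.092. For Atp2b2 these were Atp5f1b, the beta subunit of mitochondrial ATP synthase, at 0.053 and the fatty acid binding protein gene Fabp5 at 0.062.

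Closest to Atp2b1 were the mitochondrial carrier gene Slc25a11 at 0.043 and the glutamate transporter gene Slc1a1 at 0.047. Closest to Atp1b2 were the small GTPase gene Rap1b at 0.087 and Dnajc5, a chaperone of synaptic vesicles, at 0.096. For Atp2b3 they were Hnrnpa1, an RNA-binding protein, at 0.135 and the lipid kinase gene Pip5k1c at 0.148. Medians over the candidates lay between 0.47 for Atp2b1 and 0.73 for Atp2b3. With 6 pools and this many candidates, some close matches arise in any case, and these distances are a description.

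Other genes of ion pumping and calcium handling were taken from a list of 49, of which 29 had a probe set with 1 gene name. After the filter 43 probe sets of 23 genes remained, 19 on the higher and 24 on the lower side in SHA, with a median of -0.03. None passed limma's adjusted test, and 2 of the 43 had an unadjusted p under 0.05 in limma, against 1.50% of all probe sets. The same 2 were the only ones whose lines did not overlap, against 5.66% of all. The list's share without overlap was thus no larger than over all probe sets. Its share by unadjusted p was larger, through these 2 probe sets alone. Both belong to Fxyd1, which is described because the rule for naming genes selects them.

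Fxyd1 encodes phospholemman, a small membrane protein that binds the sodium-potassium pump and lowers its activity in heart muscle. Probe set rc_AA799645_at read 712.5, 709.0 and 887.1 in SHA, against 1226.3, 1047.1 and 1188.8 in SLA. All SHA pools lay below all SLA pools, with a difference of -0.59 ± 0.22 (limma, unadjusted p = 0.024, adjusted p = 1.00). Its companion rc_AA799645_g_at read 153.0, 250.0 and 231.3 in SHA, against 355.3, 360.1 and 387.1 in SLA, again without overlap, a difference of -0.83 ± 0.29 (limma, unadjusted p = 0.017, adjusted p = 1.00). Both derive from the same sequence entry and are not independent.

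Within the numbers 1, 2 and 3 Fxyd1 differed by -0.78, -0.56 and -0.42 on the first probe set and by -1.22, -0.53 and -0.74 on the second. With the pool number as a block the unadjusted p values were 0.0036 and 0.0052 in limma, and no probe set of the list passed after adjustment. Without SHA pool 1 they were 0.066 and 0.063, and without SLA pool 3 they were 0.073 and 0.058, so that neither probe set kept an unadjusted p under 0.05. The first also lost it without SHA pool 2 (0.076), without both pools numbered 1 (0.067) and with no intensity trend (0.069). Fxyd1 is also made in the choroid plexus, and markers of that tissue had 4 of 5 tested on the lower side, with a median of -0.10. The summed intensity of all 6 measured markers was 953 to 1103.7 in SHA and 1050.8 to 1185.0 in SLA. Ttr averaged 118 in SHA and 110 in SLA, and Aqp1, left out by the filter, 19.1 and 5.47. The 5 microglia markers tested were all on the lower side, with a median of -0.52. Of these, 2 had an unadjusted p under 0.05 in limma, against 1.50% of all probe sets. The lines did not overlap for 2 of the 5, C1qb and Cd74, against 5.66% of all probe sets. C1qb averaged 315 in SHA and 479 in SLA. Cd74 averaged 15.6 in SHA, near the floor of 8.9, and 124 in SLA. Csf1r and Itgam, left out by the filter, averaged higher in SHA, at 42.1 against 20.4 and 20.9 against 15.2. All 7 measured microglia markers summed to 823 to 972 in SHA and 983 to 1764.8 in SLA. Endothelial markers had 1 on the higher and 5 on the lower side (median -0.19), and oligodendrocyte markers 2 and 5 (median -0.11). The part of any of these cell types in the Fxyd1 values, or of choroid plexus in those of Atp2b3, was not tested.

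**Figure D4:**
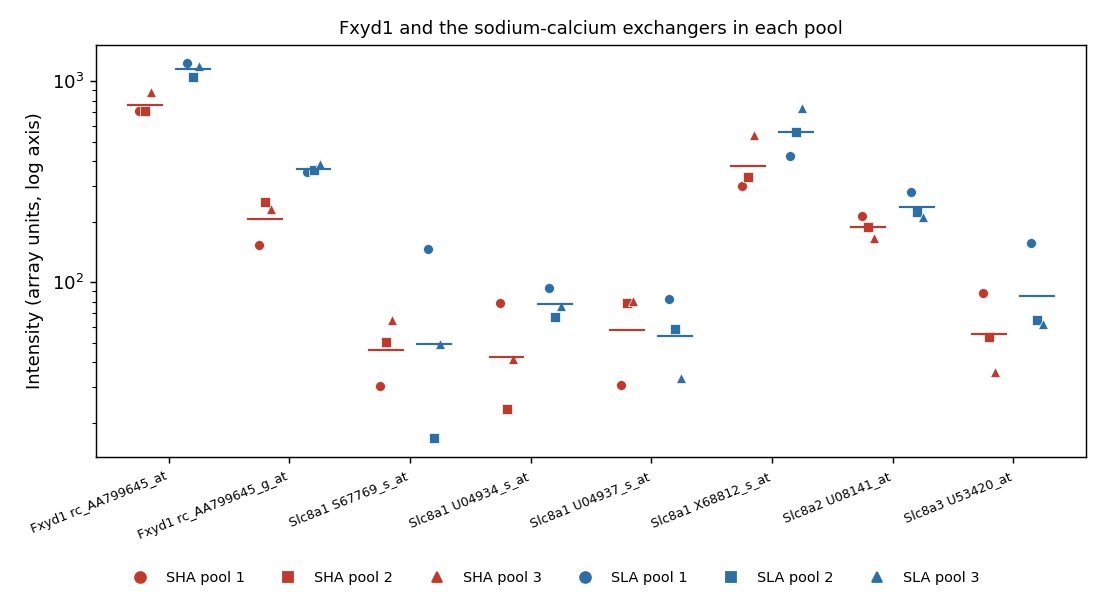
Intensities of Fxyd1 and of the sodium-calcium exchangers Slc8a1, Slc8a2 and Slc8a3 in every pool, on a log axis in array units, with red for SHA, blue for SLA and lines for geometric means. The SHA and SLA pools are apart only on the 2 Fxyd1 probe sets, leftmost in the plot.

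The sodium-calcium exchangers use the gradient built by the sodium-potassium pump to export calcium. Of their 6 probe sets tested, most of them for Slc8a1, 5 were on the lower side in SHA and none passed. Over all probe sets 48.1% were on the higher side. Slc8a1 on X68812_s_at read 301.2, 334.8 and 542.9 in SHA, against 423.8, 558.7 and 732.5 in SLA, a difference of -0.55 ± 0.31 (limma, unadjusted p = 0.11, and 0.01 with the block). With the block, 5.26% of all probe sets had an unadjusted p under 0.05 in limma. Slc8a2 averaged 189 ± 23.2 in SHA and 239 ± 37.0 in SLA (SD, n = 3 each), a difference of -0.33 ± 0.29. Slc8a3 differed by -0.63 ± 0.57. The other 3 Slc8a1 probe sets tested differed by -0.89, -0.10 and 0.10, so the gene's probe sets did not share 1 direction. A further one, X68191_at, was left out by the filter, with means of 11.3 in SHA and 9.87 in SLA.

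Further isoforms of the members' families lay near equality or varied widely. Atp1b3, a beta subunit of many tissues, averaged 567 ± 204 in SHA and 579 ± 208 in SLA (SD, n = 3 each), a difference of -0.03 ± 0.34 that turned to 0.03 after median centring. Atp2a1 and Atp2a3, SERCA pumps best known from muscle and blood cells, differed by -0.18 ± 0.57 and -0.25 ± 0.40. The 2 probe sets of Atp2b4, the plasma membrane pump PMCA4, differed by -0.18 and 0.70. Fxyd4, best known from kidney, differed by -0.03 ± 0.38, which turned to 0.03 after quantile normalization. Atp1a4 and Fxyd2 were left out by the filter, with means of 11.3 and 13.9 in SHA, against 11.4 and 12.0 in SLA.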

How the data were processed

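Total RNA of 6 hippocampal pools was measured on single-colour arrays with 8799 probe sets. The authors deposited linear intensity values, whose 2%-trimmed mean lay between 250.3 and 250.4 on every array. The sources used here name neither the software nor a scaling target. The 59 control probe sets were set aside, intensities under 8.9 (the 10th percentile) were raised to it, log2 was taken, and the dimmest 25% were left out, which kept 6555 probe sets. Members and gene lists were chosen with earlier results of these data known. All 20 member probe sets are reported, other genes by pump family or by an unadjusted p under 0.05, and 2 most similar genes per member.

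SHA and SLA pools were set against each other by limma version 3.58.1 under R 4.3.3, using lmFit, then eBayes with an intensity trend (two-sided), and p-values were adjusted by Benjamini-Hochberg over 6555 probe sets. The code was tested on data simulated without an effect of the pool number, which does not bear on error rates or power in these pools. Symbols follow the platform annotation, updated by gene number through a table of assembly GRCr8. Deviations of same-numbered pools correlated at 0.44, 0.68 and 0.13, so the replicate block treats numbers as pairing pools, on the data alone. The main fit leaves the pool number out, so its p-values, standard errors and intervals are unpaired. SHA pool 3 correlated more with SLA pool 1 (0.16) than with SLA pool 3, so the pairing is least clear for number 3. Nothing states how the pools were kept apart after dissection, so p-values measure the spread between these pools, which may be technical, and 3 arrays per line limit the precision. Arrays correlated with each other at 0.779 to 0.963.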

Additional observations from a re-analysis of the deposited data

How the results depend on the processing

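Leaving out both pools numbered 1 was chosen after the data were seen. No probe set passed limma's adjusted test under any of the 17 alternatives or at an adjusted p under 0.10. At an unadjusted p under 0.05 the main count of 98 became 354 under array weights, 345 under the replicate block, 203 when dim probe sets were kept, 63 after removal of the dimmer 50%, and 57 to 152 without single pools. The members' count of 0 was 1 with array weights, 2 with the replicate block and 0 to 1 without single pools. Probe sets without overlap numbered 371, 710 to 1030 without single pools and 1589 without both pools numbered 1, as fewer pools overlap less often. The members' direction held in 320 of 338 values and turned in 18, on 9 probe sets, none past the threshold, and the cause was not tested. The filters, the trend settings and the replicate block cannot change a difference, so agreement there was fixed in advance. Of these turns, 14 came without a single pool and 4 with array weights or without both pools numbered 1. Other turns were 26 of 231 values, on 8 of 14 probe sets of related genes. With array weights, differences turned to -0.22 (Atp2a2 rc_AA957510_s_at), -0.09 (Atp2b2 rc_AA943784_s_at), 0.04 (Atp2a3), 0.07 (Slc8a1 S67769_s_at) and -0.18 (Atp2b4 X76452cds_s_at). Without both pools numbered 1 they turned to 0.37 (Atp1b2 D90048exon_at), -0.08 (rc_AA957510_s_at), 0.02 (Fxyd4) and 0.99 (S67769_s_at). Centring gave 0.03 for Atp1b3 and 0.02 for Fxyd4, and quantile normalization 0.03 for Fxyd4. Without single pools, differences ranged from -1.36 to 0.08 (D90048exon_at), -0.40 to 0.00 (D90048exon_g_at), -0.44 to 0.25 (J04629_at), -0.34 to 0.17 (rc_AA800212_at), -0.33 to 0.34 (rc_AA957510_s_at), -0.61 to 0.64 (rc_AI103671_at), -0.37 to 1.61 (rc_AA943784_s_at), -0.06 to 0.63 (rc_AA955388_s_at) and -0.44 to 0.34 (J05087_at). For related genes they ranged from -0.31 to 0.24 (Atp1b3), -0.25 to 0.25 (Fxyd4), -0.44 to 0.10 (Atp2a3), -0.61 to 0.05 (Atp2a1), -0.88 to 0.69 (S67769_s_at), -0.25 to 0.56 (Slc8a1 U04937_s_at), -0.79 to 0.45 (Atp2b4 U15408_at) and -0.11 to 1.32 (X76452cds_s_at). Fxyd1 kept its sign under these alternatives, at -0.70 to -0.53 and -0.97 to -0.61 without single pools, but not its unadjusted p under 0.05, which reached 0.076 and 0.063 in limma. Among the members the stricter filter removed rc_AA800212_at and rc_AI172499_at. Among the related genes it removed Atp2a1, Slc8a3, both Atp2b4 probe sets, and Slc8a1 on S67769_s_at, U04934_s_at and U04937_s_at.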
